A study of Mus musculus with 6 samples.

Results

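The genes described here code for the protein subunits of the mitochondrial ribosome. They were taken as all symbols of the deposited table that begin with Mrpl or Mrps followed by a digit. This rule gave 77 of 13912 genes, 48 with a large subunit symbol (Mrpl) and 29 with a small subunit symbol (Mrps), and all 77 were tested. Of 78 protein-coding mouse genes with such a symbol in RefSeq, 77 were in the table, and the other, Mrpl58, was listed there under its older symbol Ict1. None of the 6 pseudogenes of the family that RefSeq names was listed.

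RNA was sequenced from 4T1-Luc2-RFP, a mammary carcinoma line of BALB/c origin with a luciferase and a red fluorescent reporter. The cultured group (3 libraries) was the line that had not been injected. The tumour group (3 libraries) was FACS-isolated 4T1-Luc2-RFP cells from the mammary glands of the MIND model, in which cells are placed inside the milk ducts. BALB/c is the strain on all 6 labels, no age is given, and the tumour titles begin with Right. Only the tumour cells went through a sort, so growth in the gland, dissociation and sorting cannot be told apart. No label says that libraries of a group came from separate cultures or animals, and the spread against which p-values are set may therefore be technical.

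Mitochondria keep a ribosome of their own, which translates the few messenger RNAs of the mitochondrial genome into core subunits of the respiratory chain and the ATP synthase. Its ribosomal RNAs are made inside the organelle, whereas every one of its proteins is encoded in the nucleus, translated in the cytosol and imported. The small subunit binds the messenger RNA and holds the decoding site, and the large subunit forms the peptide bond and the exit tunnel. Some of the proteins have counterparts in the bacterial ribosome and others are found only in mitochondria.

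The 77 genes were spread over 17 chromosomes (GENCODE M21, GRCm38). RefSeq start-site windows, from 250 bases before to 50 bases after an annotated start, were matched for 68 of them. The 7 stretches below are shown because they belong to genes that were lower in the tumour libraries. Mrps18b and Mrps31 had the largest changes, and the other 5 carry the letters GCGCNTGCG or their reverse complement, written in capitals. These letters are the core of the site bound by NRF1, nuclear respiratory factor 1, a transcription factor known for genes of mitochondrial proteins. Mrpl10 and Mrps26, also lower, had the letters in their windows but are not printed. Members with the letters that were not called lower, such as Mrps21, Mrpl30 and Mrps7, are not printed either. The printed stretches were thus picked by both traits and cannot show a link between them. Each stretch holds the 150 bases before the start, 5′ to 3′ in the direction of transcription (RefSeq, GRCm38.p6). They lie at chr17:35916441-35916590 on the minus strand for Mrps18b, chr8:22411190-22411339 on the plus strand for Mrps31, chr11:120484487-120484636 on the plus strand for Mrpl12, chr11:97315566-97315715 on the plus strand for Mrpl45, chr14:57826089-57826238 on the plus strand for Mrpl57, chr3:94443186-94443335 on the plus strand for Mrpl9 and chr7:105811088-105811237 on the minus strand for Mrpl17.
Mrps18b: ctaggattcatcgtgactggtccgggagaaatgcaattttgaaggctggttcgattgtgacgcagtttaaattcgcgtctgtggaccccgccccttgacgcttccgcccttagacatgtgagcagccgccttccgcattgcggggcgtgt
Mrps31: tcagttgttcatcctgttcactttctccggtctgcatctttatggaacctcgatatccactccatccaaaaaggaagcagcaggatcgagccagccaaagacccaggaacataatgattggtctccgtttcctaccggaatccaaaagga
Mrpl12: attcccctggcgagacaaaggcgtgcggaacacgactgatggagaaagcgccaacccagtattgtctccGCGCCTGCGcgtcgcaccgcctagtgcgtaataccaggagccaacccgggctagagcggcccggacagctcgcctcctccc
Mrpl45: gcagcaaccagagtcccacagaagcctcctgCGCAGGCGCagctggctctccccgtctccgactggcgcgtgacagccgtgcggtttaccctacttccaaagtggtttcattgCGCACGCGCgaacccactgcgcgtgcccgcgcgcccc
Mrpl57: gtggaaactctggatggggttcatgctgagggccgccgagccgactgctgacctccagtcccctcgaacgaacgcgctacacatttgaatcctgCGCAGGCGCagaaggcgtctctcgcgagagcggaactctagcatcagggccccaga
Mrpl9: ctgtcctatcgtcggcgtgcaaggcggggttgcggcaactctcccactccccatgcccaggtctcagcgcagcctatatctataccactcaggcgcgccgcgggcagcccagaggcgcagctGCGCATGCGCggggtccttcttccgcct
Mrpl17: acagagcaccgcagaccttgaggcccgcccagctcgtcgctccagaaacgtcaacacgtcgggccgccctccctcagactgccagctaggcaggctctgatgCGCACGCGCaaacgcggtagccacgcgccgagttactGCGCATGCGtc
In Mrpl12, which codes for the stalk protein of the large subunit, the letters began 81 bases before the start. In Mrpl45, a mitochondria-specific protein near the exit tunnel, they occurred at 119 and 37 bases before the start. Mrpl17 had them at 48 and 11 bases before the start, Mrpl57 at 56 bases, and in Mrpl9 the matches of both strands overlapped at 28 and 27 bases. The stretch of Mrps31 did not hold these letters, and Mrps18b held them only farther from its start than the printed bases.

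Over all windows, GCGCNTGCG on either strand was found in 24.3% of the 74 windows of these genes, in 12.2% of the windows of all tested genes and in 6.31% of all 32851 windows. The ETS core CCGGAAG was found in 33.8%, 16.2% and 8.86% of the same windows, again on either strand. AAGATGGC, the core letters of YY1, was found in 16.2%, 4.15% and 2.75%. The E-box CACGTG, which MYC binds, was found in 9.46% of the members' windows and 9.73% of those of tested genes. Some genes have several windows, which can overlap, and the 7 members' windows with the E-box belong to 5 genes. GGGCGG, bound by SP1, was found in 52.7% and 60.4%, and CCAAT in 40.5% and 37.3%. Of the 18 members with the NRF1 letters 8 were lower in tumour by the test below, and of the 50 without them 11 were. Of all genes tested 18.8% were lower. That share was not counted apart for genes with and without each set of letters, so these counts cannot show a link. Of the 25 members with the ETS letters 7 were lower and of the 43 without 12 were, and for the YY1 letters it was 2 of 12 and 17 of 56. With and without the E-box it was 1 of 5 and 18 of 63, for the SP1 letters 8 of 34 and 11 of 34, and for CCAAT 8 of 27 and 11 of 41. The median change with and without the letters was −0.58 and −0.38 for NRF1, −0.27 and −0.42 for ETS, and −0.37 and −0.43 for YY1. It was −0.42 and −0.40 for the E-box, −0.28 and −0.55 for SP1, and −0.36 and −0.46 for CCAAT. A match of letters is a description of a window, and binding was not measured.

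The libraries held 35448588 to 41469090 reads. Values below are CPM, reads relative to the library total after the TMM scaling of the deposited table. Changes are differences in log2 CPM between the group means, negative where tumour was lower, with limma's standard error (SE). A gene is called lower or higher where limma's Benjamini-Hochberg adjusted p over all 13912 genes was under 0.05. Genes of host cells were high in the tumour libraries. The macrophage and monocyte list (17 of 18 markers tested, all 17 higher) summed to 28.5 to 38.9 CPM in culture and 7258 to 10797 CPM in tumour. The fibroblast list (14 of 14 tested, all higher) summed to 26.3 to 56.2 and 7318 to 9434 CPM, with Fbln1 at 0 in culture, and the neutrophil list (11 of 12 tested, all higher) to 86.5 to 102 and 1682 to 5616 CPM, with Mmp8 and Retnlg at 0 in culture. The epithelial and carcinoma list (19 of 20 tested, 8 lower and 2 higher, median change −0.47) summed to 3396 to 4200 CPM in culture and 3194 to 3761 CPM in tumour. In such bulk libraries fewer carcinoma cells and less RNA per cell cannot be told apart, and the part of the host RNA in the results below was not tested.

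Of the 77 genes, 22 were lower in tumour (28.6%, beside 18.8% of all genes tested) and 0 were higher by limma (beside 29.5% of all genes). At an unadjusted p under 0.05 there were 29 lower and 0 higher by limma. No share of all genes was counted at this unadjusted threshold, so these counts have no background beside them. The median change of the 77 genes was −0.42, which is 1.34-fold lower, beside a median of 0.08 over all genes, but with libraries scaled to the epithelial and carcinoma list it turned to 0.0093, beside 0.51 over all genes. The changes ran from −1.31 to 0.59, and 64 of 77 were below 0. The groups did not overlap in 33 genes. In 31 of them all tumour libraries were below all cultured ones (beside 25.2% of all genes) and in 2 of them, Mrpl24 and Mrpl14, all tumour libraries were above (beside 34.6%). The share of lower members was not above the background under every setting. It was 11.7% when tumour library 1 or 3 was left out, beside 11.2% and 10.9% of all genes, and 16.9% without a variance trend, beside 16.7%. Scaled to the epithelial and carcinoma list or the cytosolic ribosomal proteins it was 2.6% and 3.9%, beside 5.36% and 7.45%. Of the 22 genes, 3 were lower by at least 2-fold, Mrps18b, Mrps31 and Mrpl50.

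**Figure D1:**
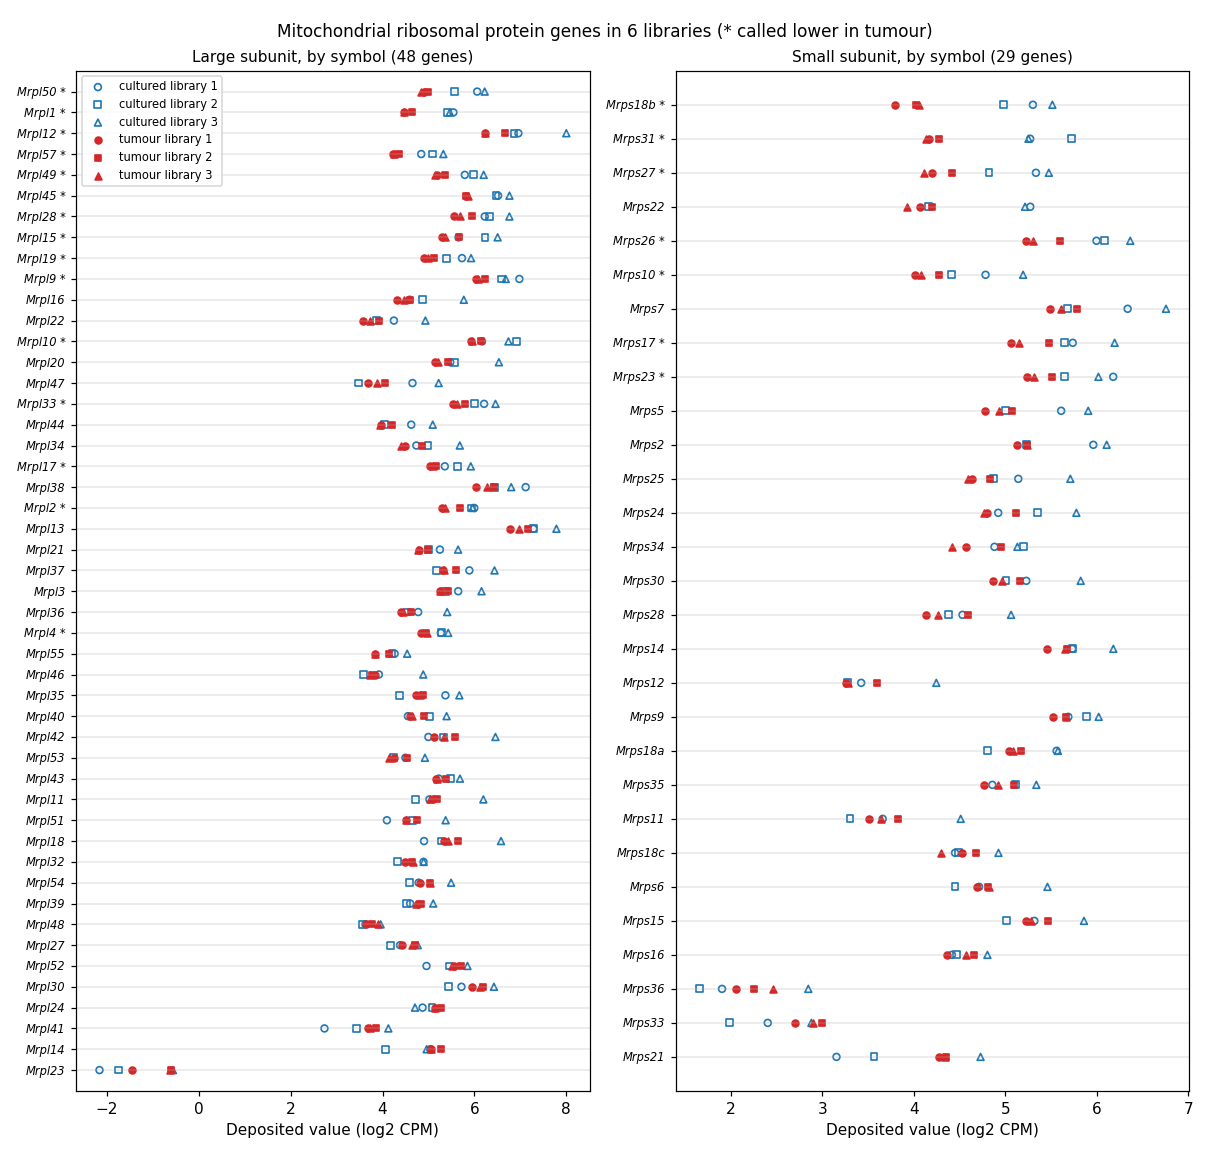
Deposited log2 CPM of each gene in the 3 cultured (open) and 3 tumour (filled) libraries, in order of change within each subunit, with the 22 genes called lower starred. The tumour points lie close together and the cultured points are spread more widely, with cultured library 3 the highest of its group in 66 of 77 genes.

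Both subunits had genes that were lower. In the large subunit 15 of 48 were lower (31.2%), with a median change of −0.42, and in the small subunit 7 of 29 (24.1%), with a median of −0.36, each beside 18.8% of all genes. At an unadjusted p under 0.05, 17 and 12 genes were lower, again with no share of all genes counted. Tumour libraries were all below the cultured ones in 20 large subunit and 11 small subunit genes. Scaled to the epithelial and carcinoma list, the medians were 0.0083 and 0.070, with 0 and 2 genes lower by limma. Symbols do not always give the seat of a protein: Mrps30 and Mrps18a sit in the large subunit of the mammalian mitoribosome, and Mrps36 belongs to the oxoglutarate dehydrogenase complex. Counted by seat, 15 of 50 large and 7 of 26 small subunit genes were lower, with medians of −0.42 and −0.44. No test was made of one subunit against the other.

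The summed CPM of the large subunit genes was 2176, 2070 and 3098 in cultured libraries 1, 2 and 3, and 1615, 1925 and 1695 in tumour libraries 1, 2 and 3. That of the small subunit genes was 1053, 912 and 1360 in culture and 729, 868 and 768 in tumour. All tumour sums were below all cultured sums in both subunits. The ratio of the large to the small sum was 2.07, 2.27 and 2.28 in culture and 2.21, 2.22 and 2.21 in tumour, so the groups overlapped in this ratio. All 77 genes together took 0.346%, 0.332% and 0.438% of reads in culture, and 0.217%, 0.274% and 0.231% in tumour.

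**Figure D2:**
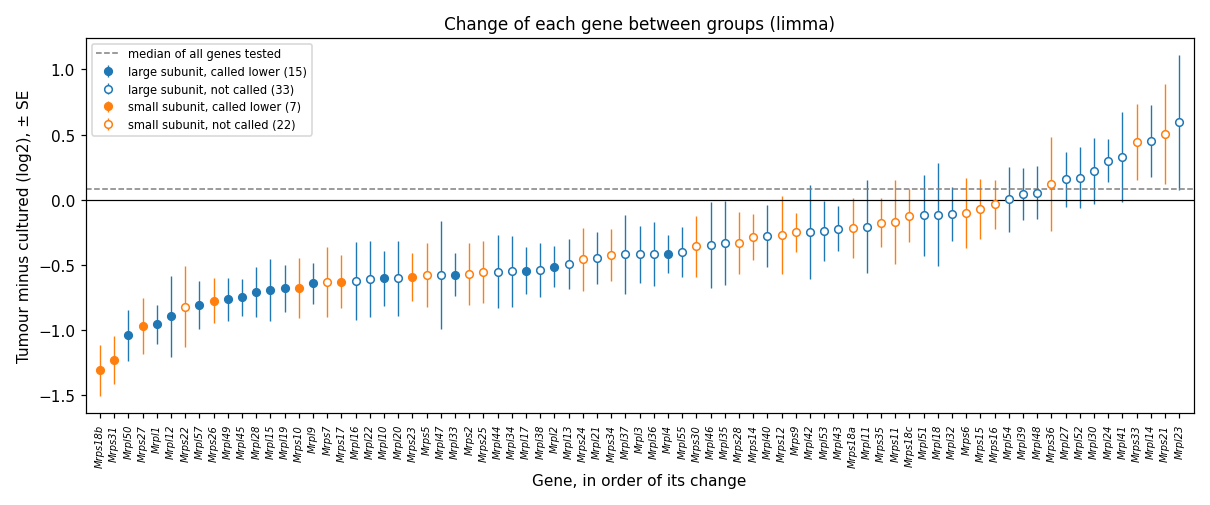
Change of each of the 77 genes (tumour minus cultured, log2) with limma's SE as bars, in order, coloured by subunit and filled where called lower. The dashed line at 0.08 is the median of all genes; large and small subunit genes are mixed along the order, and under scaling to the epithelial and carcinoma list the median of the 77 turned from −0.42 to 0.0093.

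Among the small subunit genes, Mrps18b had the largest change. It codes for 1 of the family's 3 mammalian proteins related to bacterial S18, and was at 39.4, 31.5 and 45.7 CPM in culture and 13.8, 16.3 and 16.6 CPM in tumour. Every tumour library was below every cultured one, with a change of −1.31 (SE 0.20, limma adjusted p = 0.00107). Of the 50-base windows of its longest protein-coding transcript, 63.7% also occur in transcripts of other genes. These are mainly of Gm16279, which overlaps it on the opposite strand, so the value of Mrps18b is uncertain where reads were not assigned by strand. Its relatives Mrps18a, with a change of −0.22 (adjusted p = 0.471), and Mrps18c, with −0.12 (adjusted p = 0.655), did not pass limma's test, although without cultured library 2 Mrps18a had an adjusted p of 0.0360.

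Mrps31, a mitochondria-specific protein of the small subunit head, was at 38.6, 52.9 and 38.1 CPM in culture and 18.0, 19.3 and 17.5 CPM in tumour. The groups did not overlap, and the change was −1.23 (SE 0.19, limma adjusted p = 0.00111). The gene lies at chr8:22411361-22429665 on the plus strand, with 7 exon blocks. No 50-base window of its longest protein-coding transcript occurs in an annotated transcript of another gene. Mrps27, a pentatricopeptide repeat protein of the small subunit, was at 40.3, 28.3 and 44.5 CPM in culture and 18.3, 21.4 and 17.3 CPM in tumour. It too was lower in every tumour library, with a change of −0.97 (SE 0.22, adjusted p = 0.00773).

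Mrps26, mitochondria-specific, was at 63.8, 67.9 and 82.4 CPM in culture and 37.4, 48.5 and 39.3 CPM in tumour, a change of −0.77 (SE 0.17, limma adjusted p = 0.00765). The other small subunit genes that were lower were Mrps10 (−0.68), Mrps17 (−0.63) and Mrps23 (−0.59), with adjusted p of 0.0444, 0.0349 and 0.0308. Mrps10 and Mrps17 have bacterial counterparts and Mrps23 has none. Mrps10 was not called without cultured library 1 or 3 or any tumour library (adjusted p from 0.0612 to 0.145), and Mrps17 and Mrps23 were not called without cultured library 1 or tumour library 1 or 3 (0.0524 to 0.132 and 0.0850 to 0.1198). Mrps22 had a larger change of −0.82 but an adjusted p of 0.0615, and cultured library 2, at 17.9 CPM, was inside the tumour range of 15.2 to 18.4 CPM. Mrps7, a counterpart of the bacterial S7 that organises the head, had a change of −0.63 (adjusted p = 0.0875) with cultured library 2 also inside the tumour range, and without that library an adjusted p of 0.00798.

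In the large subunit, Mrpl50 had the largest change. This mitochondria-specific protein was at 66.7, 47.6 and 74.7 CPM in culture and 30.0, 31.9 and 28.5 CPM in tumour. The change was −1.04 (SE 0.20, limma adjusted p = 0.00353), with no overlap of the groups. Mrpl1, the counterpart of the bacterial L1 stalk protein, had among the narrowest cultured values, 46.6, 42.8 and 44.1 CPM, against 22.1, 24.99 and 22.0 CPM in tumour. Its change was −0.95 (SE 0.15, adjusted p = 0.00133).

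Mrpl12 and Mrpl10 form the stalk of the large subunit that recruits translation factors, and Mrpl12 is also known to bind the mitochondrial RNA polymerase. Mrpl12 was at 124, 116 and 256 CPM in culture and 75.2, 102 and 75.2 CPM in tumour, so cultured library 3 stood far above the other two. Its change was −0.89 (SE 0.31, limma adjusted p = 0.0462), and without cultured library 1 the adjusted p was 0.0516, without tumour library 1, 2 or 3 it was 0.131, 0.0617 and 0.135. Mrpl10 was at 71.7, 121 and 107 CPM in culture and 60.8, 70.6 and 61.6 CPM in tumour, a change of −0.60 (adjusted p = 0.0482). With 1 library left out, Mrpl10 was called only without cultured library 1, and the other adjusted p ran from 0.0788 to 0.143. Per kilobase of exon Mrpl12 had the highest level of the 77 genes in culture, at 6.66 log2 CPM per kilobase.

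Mrpl45, which helps to anchor the ribosome at the inner membrane, was at 91.4, 88.5 and 109 CPM in culture and 56.6, 56.4 and 58.0 CPM in tumour. The 3 tumour libraries were nearly the same and below the cultured ones, with a change of −0.75 (SE 0.14, limma adjusted p = 0.00341). Mrpl57 was at 28.7, 33.9 and 40.01 CPM in culture and 18.7, 20.6 and 19.0 CPM in tumour, and changed by −0.81 (adjusted p = 0.00805). Mrpl49 was at 55.3, 62.9 and 73.5 CPM in culture and 36.2, 41.2 and 35.0 CPM in tumour, and changed by −0.76 (adjusted p = 0.00648). Both are mitochondria-specific proteins, and in neither did the groups overlap.

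Mrpl28, with a bacterial counterpart, was lower, with a change of −0.71 (limma adjusted p = 0.0181), and was not called without tumour library 1 or 3 (0.0794 and 0.0709). Mrpl15 was the 1 gene among the 22 whose groups overlapped: tumour library 2 was at 50.6 CPM and cultured library 1 at 50.3 CPM, with an adjusted p of 0.0445. The remaining large subunit genes called lower were Mrpl19, Mrpl9, Mrpl33, Mrpl17, Mrpl2 and Mrpl4, with changes from −0.68 to −0.41. Mrpl4, at 38.5, 39.1 and 43.1 CPM in culture and 28.6, 30.6 and 31.3 CPM in tumour, had the smallest change among the 22 (adjusted p = 0.0484) and, with 1 library left out, was called only without cultured library 3. Mrpl19 and Mrpl9 were not called without tumour library 1 or 3, Mrpl33 and Mrpl2 also not without cultured library 1, Mrpl17 not without cultured library 2 or any tumour library, and Mrpl15 only without cultured library 1 (adjusted p of the lost calls from 0.0508 to 0.141). Mrpl13, with a bacterial counterpart, had 156, 157 and 220 CPM in culture and 109, 143 and 124 CPM in tumour. Its groups did not overlap, yet its adjusted p of 0.0659 missed the threshold.

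Other members had nearly equal means. The smallest changes in the large subunit were those of Mrpl54 (0.00), Mrpl39 (0.04) and Mrpl48 (0.05), and in the small subunit those of Mrps16 (−0.03), Mrps15 (−0.07) and Mrps6 (−0.10). Mrpl54 was at 27.6, 24.0 and 45.0 CPM in culture and 28.0, 32.9 and 32.6 CPM in tumour (SE of the change 0.25). Mrps30 had a change of −0.36 (limma adjusted p = 0.242) and Mrps36 one of 0.12 (adjusted p = 0.803). Mrpl47, whose cultured libraries ran from 11.1 to 37.3 CPM, had a change of −0.58 with an adjusted p of 0.287, and 0.0115 without cultured library 2.

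The highest changes were those of Mrpl23 (0.59, limma adjusted p = 0.375) and Mrps21 (0.50, adjusted p = 0.309). Mrpl23 was the lowest of all members, at 0.223, 0.298 and 0.675 CPM in culture and 0.366, 0.652 and 0.646 CPM in tumour. Of its 50-base windows, 66.7% also occur in the pseudogene Mrpl23-ps1, so its low value may miss reads that fit both places, which was not tested. Mrps21 was at 8.90, 11.8 and 26.5 CPM in culture and 19.3, 20.3 and 20.3 CPM in tumour. With cultured library 3 left out its change was 0.96 (adjusted p = 0.00424). Mrpl53, Mrps25 and Mrps34 also share over 50% of their windows with other genes, with changes of −0.24, −0.55 and −0.42, none of them called.

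Proteins classed as mitochondria-specific and those classed with bacterial counterparts were lower at similar shares. It was 9 of 30 (30.0%, median −0.39) and 13 of 46 (28.3%, median −0.43), beside 18.8% of all genes. Of the 3 proteins related to bacterial S18, Mrps18a and Mrps18b were classed as mitochondria-specific and Mrps18c as a bacterial counterpart. Within the subunits the shares went in opposite directions. In the large subunit 11 of 30 proteins with a bacterial counterpart and 4 of 20 mitochondria-specific ones were lower. In the small subunit it was 2 of 16 and 5 of 10, with Mrps18b among the 5. The medians were −0.50 and −0.27 in the large subunit, and −0.28 and −0.68 in the small subunit. This division was counted with the changes known, and no test was made of it.

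The members moved together from library to library. Cultured library 3 was the highest of its group in 66 of 77 genes, and tumour library 2 in 68 of 77. No share of all genes was set beside these counts, and some other lists had the same order. Taking each gene's deviation from its cultured mean, the median over the 77 genes was −0.13, −0.28 and 0.36 log2 units in cultured libraries 1, 2 and 3, and −0.50, −0.27 and −0.49 in tumour libraries 1, 2 and 3. Cultured library 2 and tumour library 2 were therefore at about the same level. Cultured library 3 was also the highest cultured library for complexes II to V (0.42), cytosolic ribosomal proteins (0.30) and G2 and M genes (0.39). In these lists tumour library 2 was the highest tumour library (0.13, 0.068 and −1.06). Cultured library 3 was instead the lowest for the epithelial and carcinoma list (−0.098) and the biogenesis regulators (−0.041). Whether the order belongs to whole libraries was not tested. The range of the 77 genes within a group had a median of 0.78 log2 units in culture and 0.26 in tumour, beside 0.70 and 0.30 over all genes. It passed 1 log2 unit in 21 members in culture and in 0 in tumour.

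With single libraries left out the count of lower members ran from 9 to 32. Dropping tumour library 1 or tumour library 3 gave 9 each (11.7%), near the background of 11.2% and 10.9% of all genes. It was 32 (41.6%) without cultured library 2, beside 18.4%, and 19 (24.7%) without cultured library 3, beside 23.7%. Without cultured library 1 or tumour library 2 it was 16 (20.8%), beside 16.4% and 14.0%. Of the 22 genes, 9 were called lower whichever library was left out: Mrps18b, Mrps31, Mrps27 and Mrps26 of the small subunit, and Mrpl50, Mrpl1, Mrpl57, Mrpl49 and Mrpl45 of the large. The median change without cultured library 3 was −0.20. The members called higher were 0 in every one of these except without cultured library 3, where Mrpl30, Mrps21 and Mrps33 were called higher.

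Proteins of the mitochondrial ribosome that carry other names were read separately, 6 of 7 being in the table. Ptcd3, a pentatricopeptide repeat protein of the small subunit, was at 107, 109 and 138 CPM in culture and 49.7, 59.9 and 52.8 CPM in tumour. It was lower, with a change of −1.12 (SE 0.16, limma adjusted p = 0.000857). Gadd45gip1, a large subunit protein, was at 31.3, 37.4 and 48.5 CPM in culture and 20.7, 25.8 and 18.7 CPM in tumour, and was lower with a change of −0.83 (adjusted p = 0.0160, and 0.0616 and 0.0734 without tumour library 1 or 3). Not called were Chchd1 (−0.63, adjusted p = 0.0533), Dap3 (−0.35, adjusted p = 0.0808), the peptide release factor Ict1 (−0.09, adjusted p = 0.770) and Aurkaip1 (0.02, adjusted p = 0.957).

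Factors that build the mitochondrial ribosome or modify its RNA were lower in 14 of 28 genes and higher in 1, Mterf4, with a median of −0.67, beside 18.8% of all genes lower. Without tumour library 1, 7 of the 28 were lower, beside 11.2% of all genes. Scaled to the epithelial and carcinoma list or the cytosolic ribosomal proteins 3 and 4 were, beside 5.36% and 7.45% of all genes. Rnmtl1, the older symbol of a methyltransferase of the large ribosomal RNA, was at 26.7, 26.8 and 30.3 CPM in culture and 7.53, 9.83 and 7.37 CPM in tumour, a change of −1.77 (limma adjusted p = 0.000221). Gtpbp10, a GTPase of large subunit maturation, was at 29.8, 28.8 and 32.4 CPM in culture and 10.997, 11.9 and 11.9 CPM in tumour, a change of −1.39 (adjusted p = 0.000314). Rpusd3, a pseudouridine synthase, changed by −1.34 (adjusted p = 0.00491). In all 3 the groups were far apart.

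Of 17 mitochondrial translation factors, 5 were lower and 0 higher by limma (10 and 0 at an unadjusted p under 0.05), with a median of −0.43. For the unadjusted counts of this and the next paragraph no share of all genes was counted. Without tumour library 1 or 3, 3 were lower, and under the same scalings 2 and 1. Of all genes, 18.8% were lower as deposited, and 11.2% and 10.9% without tumour library 1 and 3. Under the 2 scalings it was 5.36% and 7.45% of all genes. The 5 lower factors included Taco1 (−1.21), an activator of translation of a cytochrome oxidase subunit. Also among them were Lrpprc (−1.15), which stabilises mitochondrial messenger RNA, and the release factor Mtrf1l (−0.94). Lrpprc was at 218, 202 and 260 CPM in culture and 100.1, 108 and 96.0 CPM in tumour. Of 20 mitochondrial aminoacyl-tRNA synthetases, which charge the organelle's transfer RNAs, 12 were lower and 0 higher (also 12 and 0 unadjusted), with a median of −0.56. Without tumour library 1, 7 were lower (beside 11.2% of all genes), and under these scalings 2 and 3 (beside 5.36% and 7.45%). Mars2, for methionine, was at 17.6, 21.2 and 23.7 CPM in culture and 5.57, 4.32 and 6.37 CPM in tumour, and Pars2, for proline, changed by −1.22. Lars2, for leucine, was not called: its tumour libraries were at 147, 160 and 952 CPM, with tumour library 3 far above the others.

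Genes that transcribe or copy mitochondrial DNA were lower in 6 of 13, with 0 higher by limma (8 and 0 unadjusted) and a median of −0.75, and in 3 under each of these scalings. Of all genes, 18.8% were lower as deposited, and 5.36% and 7.45% under these scalings. Mgme1, a nuclease of mitochondrial DNA replication, was at 43.2, 46.3 and 37.7 CPM in culture and 11.8, 12.96 and 12.1 CPM in tumour, a change of −1.78 (limma adjusted p = 7.72e-05). The transcription elongation factor Tefm changed by −1.38 and Peo1, the older symbol of the helicase Twinkle, by −1.31. Of 8 regulators of mitochondrial biogenesis, 4 were lower and 0 higher (5 and 0 unadjusted), with 2 lower without cultured library 1 or tumour library 3, and 1 and 2 under these scalings. Without cultured library 1 or tumour library 3, 16.4% and 10.9% of all genes were lower. Nrf1, whose site was searched above, was at 86.2, 67.7 and 76.3 CPM in culture and 45.8, 46.7 and 44.4 CPM in tumour, a change of −0.74 (adjusted p = 0.00436). Scaled to the epithelial and carcinoma list or the cytosolic ribosomal proteins Nrf1 was not called (−0.32, adjusted p = 0.363, and −0.49, adjusted p = 0.168). Myc was at 1190, 754 and 338 CPM in culture and 141, 178 and 162 CPM in tumour, and the cultured libraries ran in another order than for the mitoribosomal genes.

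The proteins that the mitochondrial ribosome works beside gave other counts, set beside 18.8% of all genes lower and 29.5% higher. Of 35 nuclear genes of respiratory complex I, 1 was lower (Ndufs1, −0.49) and 2 were higher (Ndufv3, 1.08, and Ndufa6, 0.44), with a median of 0.07. With 1 library left out, Ndufs1 was called lower only without cultured library 2, and Ndufa6 was not called without cultured library 1 or any tumour library (adjusted p from 0.0533 to 0.111). Of 37 nuclear genes of complexes II to V, 3 were lower and 1 higher, with a median of 0.03. Uqcrq (−0.79) and Cyc1 (−0.71), both of complex III, were lower, and Atp5l (0.92), of the ATP synthase, was higher. Cyc1 and Atp5l were not called without tumour library 1 or 3, with adjusted p from 0.0872 to 0.116. The messenger RNAs made by mitochondrial DNA itself were not analysed here.

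The ribosome of the cytosol was read as a comparison. Of all genes, 18.8% were lower and 29.5% higher, and 11.2% and 10.9% were lower without tumour library 1 and 3. Of 78 genes with cytosolic ribosomal protein symbols 3 were lower (1 without tumour library 1 or 3) and 2 higher, with a median of −0.04. Of 23 cytosolic ribosome biogenesis factors 21 were lower (14 without tumour library 1 or 3), with a median of −1.29, and of 25 genes of the G2 and M phases 23 were lower, with a median of −1.31. The median of the mitoribosomal proteins, −0.42, lay between these. All medians in this and the foregoing paragraphs rise by 0.43 log2 units when libraries are scaled to the epithelial and carcinoma list, of which 8 of 19 genes were themselves lower and 2 higher.

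**Figure D3:**
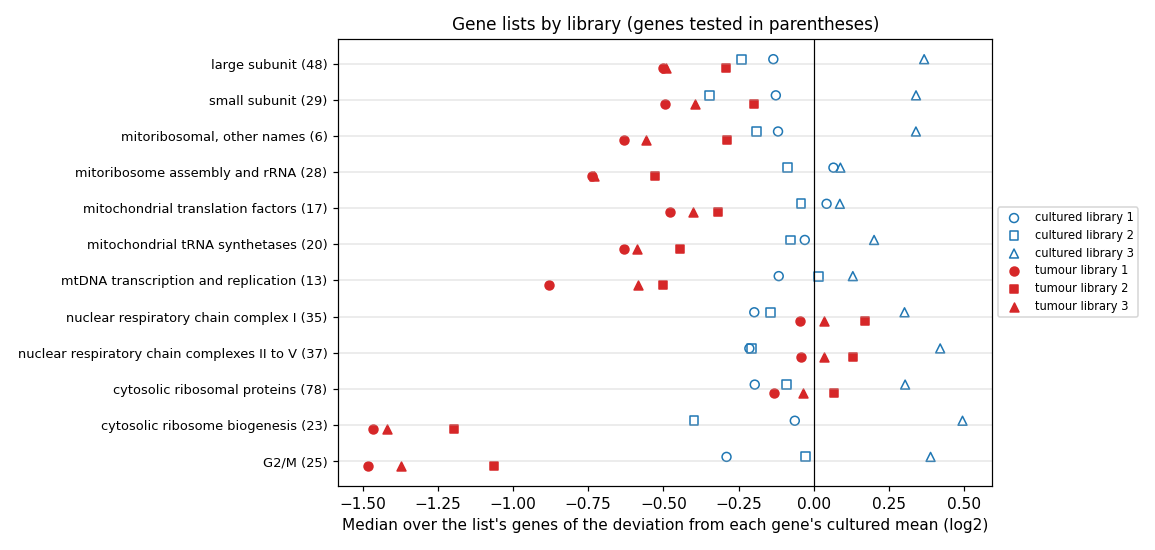
Median over each gene list of the deviation from the gene's cultured mean (log2 units) in the 3 cultured (open) and 3 tumour (filled) libraries, with the number of genes tested. In the small subunit list tumour library 2 (−0.20) lies above cultured library 2 (−0.35). In the large subunit list it lies just below (−0.29 and −0.24), so all tumour libraries are below all cultured ones. The same separation holds in the lists of mitoribosomal proteins with other names, assembly, translation factors, synthetases and mitochondrial DNA. It also holds for cytosolic ribosome biogenesis and for G2 and M genes. Scaling to the epithelial and carcinoma list turns the median change of both subunits above 0.

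The count of lower members depended on the scale. With each library centred on the median of all genes 37 were lower, and with quantile normalization 40, beside 27.6% and 39.6% of all genes, and the share of all calls that were higher moved from 61.1% to 48.1% and 35.2%. With libraries scaled to the cytosolic ribosomal proteins 3 were lower, and scaled to the epithelial and carcinoma list 2, beside 7.45% and 5.36% of all genes, with 80.1% and 87.3% of all calls higher. These scalings set the median change of all genes at −0.14, −0.32, 0.33 and 0.51, against 0.08 as deposited. The members' median minus that of all genes was −0.50 as deposited. Scalings that shift whole libraries leave this difference unchanged by construction, so they do not test it. With quantile normalization it was −0.32. Mrps18b and Mrps31 were called lower under all 15 alternatives tried.

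**Figure D4:**
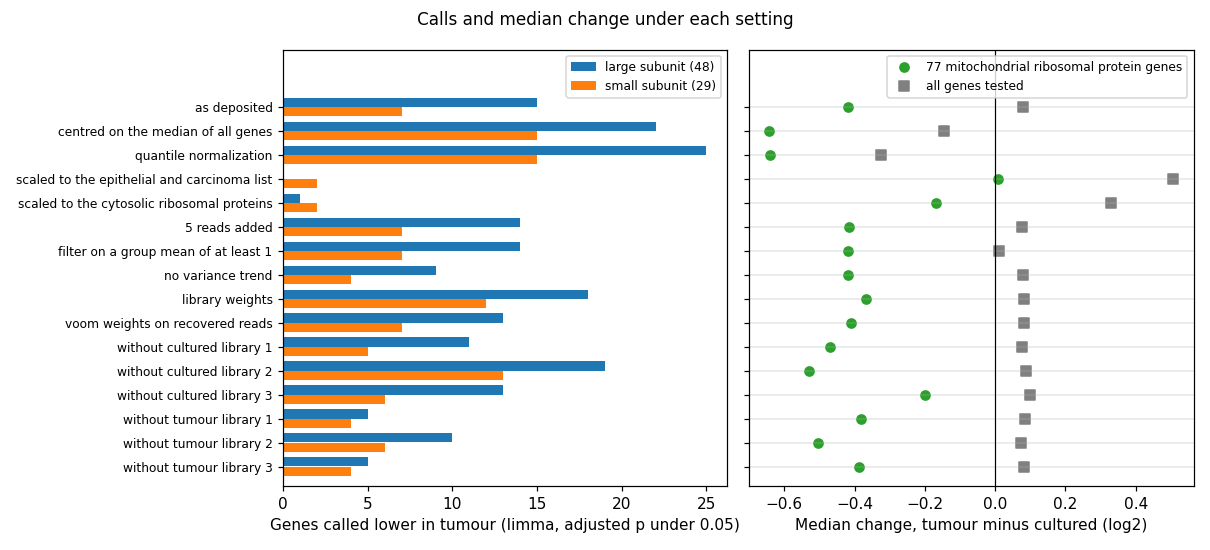
Left, number of large and small subunit genes called lower by limma under each setting, with bars from 0; right, median change (log2) of the 77 genes and of all genes. The count runs from 2 to 40 genes, and the members' median is above 0 only under scaling to the epithelial and carcinoma list (0.0093).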

How the data were processed

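Messenger RNA levels were read from 1 table of 13912 genes in 6 libraries, 3 cultured and 3 tumour. The values the authors deposited were log2 CPM, made with HISAT, mm10, HTSeq and limma per the submitters' processing notes, with versions not given in the sources used here. Their form, voom with 0.5 reads added and TMM scaling, was checked: solved for reads, 100% of values were whole within 0.01. Recovered totals were 35448588 to 41469090 reads, and the smallest gene total over 6 libraries was 61 reads, so a filter on low counts had been applied before deposit. Libraries were numbered 1 to 3 within a group in the order of their label numbers.

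Groups were compared with limma 3.58.1 (R 4.3.3) on the deposited log2 values of all genes, with a variance trend, two-sided, with Benjamini-Hochberg adjustment over all genes at 0.05. The fit was tested on simulated data. A count model was not run, because the deposited unit is log2; limma with voom weights on recovered reads stood in its place. The members and gene lists were chosen with earlier results of these data known, so lists are described by counts and medians with no test.

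Genes were named by a rule: in each subunit the 8 called lower with the largest change, the 3 smallest changes, the 2 highest and the 1 lowest mean, the 5 members with the widest cultured range, every member called higher, a few preset members, and up to 3 called genes of each other list; 1 gene of these is not reported here. Mrpl4, Mrpl9, Mrpl13, Mrpl14, Mrpl17, Mrpl19, Mrpl24, Mrpl2, Mrpl30, Mrpl33, Mrpl53, Mrps22, Mrps25, Mrps33, Mrps34, Mterf4 and Lars2 were named after their values were seen, as were the promoters printed. Coordinates and transcripts came from GENCODE M21 (GRCm38) and start-site windows of 300 bases from RefSeq (GRCm38.p6), both strands searched. The 50-base windows were those of each gene's longest protein-coding transcript, searched in the annotated transcripts of other genes. The NRF1 letters were first counted in a form of 10 letters (17.6% of the members' windows, 9.15% of those of tested genes, 13 members) and then shortened to 9. Alternatives covered 4 scalings, added reads, a filter on low values, 3 models and leaving out each library.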

Additional observations from a re-analysis of the deposited data

How the results depend on the processing

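Under 15 alternatives the 22 lower members gave 2 to 40. Centring on the median of all genes gave 37 (15 in the small subunit). Quantile normalization gave 40 (25 large, 15 small, small subunit median −0.66), 5513 lower among all genes and 74 in the accompanying pathway lists, where the deposited scale gave 2612 and 43. It also reversed Mrpl23 (−3.27, adjusted p = 0.000888), Mrps36 (−1.32, adjusted p = 0.0145) and Atp5l (−0.62, adjusted p = 0.0855). Scaling to the epithelial and carcinoma list gave 2 (0 large by limma, 2 small), 1 higher (Mrpl24), 8 members without overlap, 746 among all genes and 11 in the pathway lists, with medians of 0.0093 for the members, 0.0083 for the large and 0.070 for the small subunit. Scaling to the cytosolic ribosomal proteins gave 3 (1 large, 2 small), 1036 among all genes and 12 in the pathway lists. Without a variance trend 13 were lower (9 large, 4 small), and with library weights 30 (12 small), with 1 higher (Mrps21). Leaving out 1 library at a time gave 9 to 32 lower members (5 to 19 large, 4 to 13 small), 0 to 3 higher, 1520 to 3301 lower among all genes and 24 to 46 in the pathway lists. The causes were not tested. The centring and the scalings to a gene list shift the changes of all genes by the same amount, whereas quantile normalization does not. Adding 5 reads, the filter on low values and voom weights gave 21, 21 and 20. Of the 22 members, 9 were called lower in at least 13 of the alternatives and whichever library was left out, and 4 in fewer than 8 alternatives. No paired analysis was possible because the groups share no label number.

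Counting error was small at these depths except for Mrpl23, which was below 1 CPM in every library. With 3 libraries a group, cultured values that differ by over 1 log2 unit in 21 members limit which changes could be called.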
